A study of Homo sapiens with 12 samples.

Results

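The regions described here are the RNA segments that nearly every NONO peak list of the study held. All 26351 deposited peaks of the 6 lists were pooled, peaks that overlapped by at least 1 nt on the same strand were merged, and a region was kept when at least 5 of the 6 lists had a peak in it. This left 293 of 16419 regions, called core regions below: 101 had a peak in 6 lists and 192 in 5. A further 333 regions had a peak in 4 lists, 926 in 3, 2252 in 2 and 12615 in 1. The presence of peaks chose the members, so counts of lists and peak strength are given as descriptions without a test.

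The study mapped RNA contacts of NONO in the human prostate cancer line 22Rv1 by eCLIP, which crosslinks protein to RNA with ultraviolet light, recovers the protein with an antibody and sequences the attached RNA beside an input library. Cells were grown for 40 h and then held for 4 h under 1 of 3 conditions. These were 0.04% DMSO alone, 20 µM SKBG-1(R) in 0.04% DMSO, or 20 µM SKBG-1(S) in 0.04% DMSO, so every group contained DMSO. SKBG-1(R) and SKBG-1(S) are stereoisomers, as the R and S of the labels denote. Each group had 2 replicates, and each replicate had an immunoprecipitated library and an input library that together gave 1 peak list. Whether the replicates came from separate cultures is not stated in the labels, and the spread between lists may be technical.

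NONO is a nuclear RNA- and DNA-binding protein of the DBHS family, whose other members in human cells are SFPQ and PSPC1. It is a structural protein of paraspeckles, nuclear bodies assembled on the long noncoding RNA NEAT1, and it takes part in transcription, splicing and the nuclear retention of RNA. A pre-mRNA is bound by such proteins while it is transcribed, and its introns are removed and mostly degraded inside the nucleus.

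Where a reference sequence was at hand, the bases that a core region's lists shared were mostly rich in G on the RNA strand. The sequences below are the longest stretch covered by the peaks of every list that held the region. They were chosen to show a coding exon, noncoding exons, introns and exceptions, and they are given 5′ to 3′ on the strand of the RNA in GRCh38, with runs of 3 or more G in capitals. Sequences come from GENCODE 29 transcripts, except those of JADE1, E2F3 and DOCK1, which come from RefSeq promoter windows. The window of DRD4 (chr11:637325-637431, plus strand) lay in a coding exon of this dopamine receptor gene. RP13-25N22.1 (chr11:1573275-1573341, plus strand) is a noncoding transcript, and its window lay in an exon. GALNT7 (chr4:173169249-173169318, plus strand), which codes for an enzyme of mucin-type O-glycosylation, and TNRC18 (chr7:5420151-5420205, minus strand) held theirs in introns by the authors' annotation. These 4 regions had a peak in 6 lists.
DRD4: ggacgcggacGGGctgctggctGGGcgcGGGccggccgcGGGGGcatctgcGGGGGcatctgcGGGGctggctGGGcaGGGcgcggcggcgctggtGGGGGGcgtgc
RP13-25N22.1: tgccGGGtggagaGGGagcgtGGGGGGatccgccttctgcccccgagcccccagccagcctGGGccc
GALNT7: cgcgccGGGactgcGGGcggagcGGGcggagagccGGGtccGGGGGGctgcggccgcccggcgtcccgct
TNRC18: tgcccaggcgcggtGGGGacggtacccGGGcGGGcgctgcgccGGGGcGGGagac
Regions of 5 lists are represented by 6 windows. DLEU2 (chr13:50125408-50125479, minus strand) is a long noncoding RNA that hosts microRNAs, and its window lay in an exon. MIRLET7BHG (chr22:46105421-46105466, plus strand), another microRNA host, is also shown by an exon. OAZ1 (chr19:2270624-2270661, plus strand), the ornithine decarboxylase antizyme, is shown by its coding exon. BCL6 (chr3:187743689-187743747, minus strand), a transcriptional repressor, C19orf25 (chr19:1469446-1469543, minus strand) and JADE1 (chr4:128811634-128811687, plus strand), a subunit of a histone acetyltransferase complex, are shown by introns.
DLEU2: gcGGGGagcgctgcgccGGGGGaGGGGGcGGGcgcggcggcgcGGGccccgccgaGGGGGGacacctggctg
MIRLET7BHG: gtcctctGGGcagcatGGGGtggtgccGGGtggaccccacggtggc
OAZ1: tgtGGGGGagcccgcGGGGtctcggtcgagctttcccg
BCL6: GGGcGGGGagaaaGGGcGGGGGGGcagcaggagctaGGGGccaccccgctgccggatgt
C19orf25: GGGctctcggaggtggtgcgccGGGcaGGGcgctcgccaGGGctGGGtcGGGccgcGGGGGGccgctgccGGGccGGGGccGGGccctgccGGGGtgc
JADE1: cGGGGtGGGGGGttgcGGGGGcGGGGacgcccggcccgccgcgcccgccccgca
Not every core window had more G than C. E2F3 (chr6:20403412-20403491, plus strand), a cell cycle transcription factor, had 28.8% G and 51.3% C in the intronic window of a six-list region. DOCK1 (chr10:126905711-126905751, plus strand), a guanine nucleotide exchange factor of the Rac pathway, had 34.1% G and 56.1% C and no run of 3 G.
E2F3: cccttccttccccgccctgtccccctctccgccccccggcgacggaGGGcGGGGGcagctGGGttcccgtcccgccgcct
DOCK1: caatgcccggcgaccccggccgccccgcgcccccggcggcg

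Composition was counted in the 50 nt around the middle of each shared stretch. Only 47 of the 293 core regions (16.0%) had these bases in a reference sequence used here. The shared stretches themselves, looked up separately, were also found for 47 regions, 30 from transcripts and 17 from promoter windows. A check over the whole set would need 80%, so it is void. The values describe the 47 windows of 50 nt, which lie in or near annotated exons and starts. Their median G content was 52% and their median C content 30%. In the 2395 windows of regions held by 1 to 4 lists, picked by the same sources, the medians were 40% and 32%. In the 50 transcribed nt of 35116 RefSeq promoter windows they were 30% and 28%. G outnumbered C in 42 of 47 core windows (89.4%), in 65.1% of windows of 1 to 4 lists and in 56.6% of promoter windows.

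Runs of G were unequal between the strands of these windows. The letters GGGG occurred on the RNA strand in 39 of 47 core windows (83.0%) and on the other strand in 15 (31.9%). In regions of 1 to 4 lists the shares were 57.5% and 39.1%, and in promoter windows 23.6% and 18.3%. GGG, which GGGG contains, was found on the RNA strand in 46 of 47 core windows and in 88.7% of windows of 1 to 4 lists. GCGCG occurred in 14 core windows (29.8%, against 17.0% in regions of 1 to 4 lists), AGGGA in 3, GTGTG in 1 and GAAGA in 1. Neither GTAAG nor TTTTT was present in a core window, and CCCC mirrors GGGG on the opposite strand. The 13 six-list windows had a median of 50% G and the 34 five-list windows one of 54%.

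**Figure D1:**
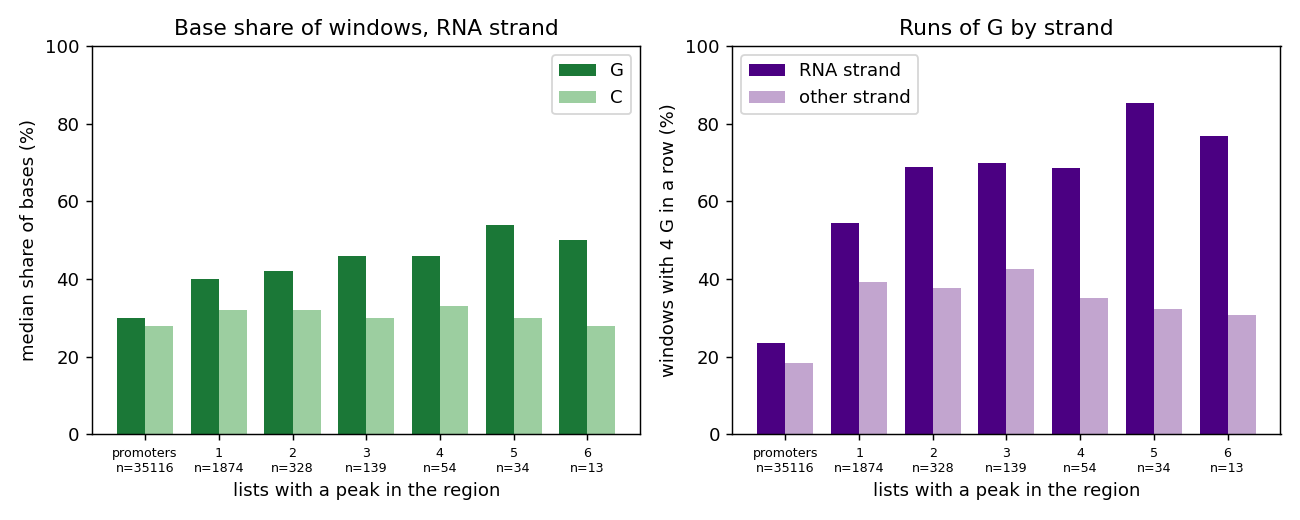
Left, median share of G and of C in 50-nt windows (percent, bars) on the RNA strand, for promoter windows and for regions grouped by the number of lists with a peak. Right, percent of the same windows with 4 G in a row on the RNA strand and on the other strand. The number of windows (n) is under each group, G stands at 50 and 54% in six- and five-list windows, and C lies between 28 and 33% throughout.

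Core regions lay nearer to the start of their genes than the rest. The median distance from the annotated gene start to the middle of the region was 2111 nt for core regions and 15706 nt for regions of 1 to 4 lists. Within 1 kb of the start lay 85 of the 291 core regions with a gene (29.2%), against 12.0% of the other regions. Within 5 kb lay 60.8% against 28.2%, and beyond 50 kb 7.56% against 19.0%. Measured to the nearest annotated transcript start on the strand, the medians were 574 and 2626.5 nt. The host genes themselves also held regions farther in: the 4746 other regions of these genes had a median distance of 23579.5 nt, and 6.17% of them lay within 1 kb.

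The distance fell with each further list up to 5. Medians were 17383 nt in regions of 1 list, 11969 in 2, 7529 in 3, 4458 in 4, 2136.5 in 5 and 2111 in 6. The longest list, SKBG-1(R) replicate 2, supplied most regions of a single list. Without the regions found in that list alone, those of 1 to 4 lists had a median of 11314 nt and 17.5% within 1 kb. Leaving out the 5 genes with the most core regions lowered the core median to 1724 nt. Counting each of 149 gene names once by its core region nearest the start gave a median of 1397 nt, with 64 genes (43.0%) within 1 kb.

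**Figure D2:**
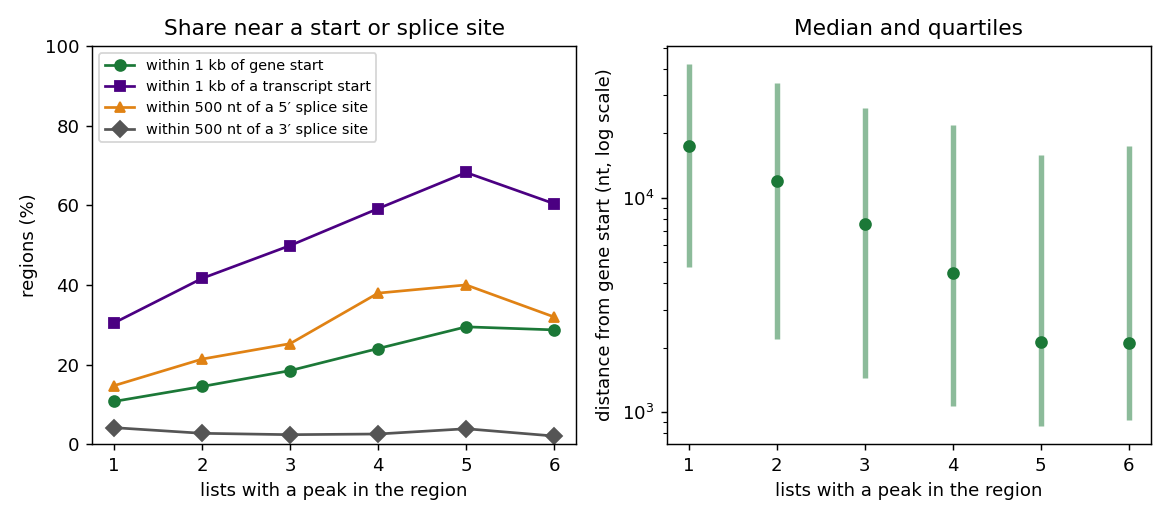
Left, percent of regions within 1 kb of the gene start or of any transcript start, by the number of lists with a peak. Also shown is the percent of intronic regions within 500 nt of a 5′ or 3′ splice site, both of the intron with the nearest 5′ site. Right, median distance from the gene start (points, nt, log axis) with the first and the third quartile (bars). The median falls from 17383 nt in 1 list to 2111 nt in 6, while the share near a 3′ splice site stays between 2.06 and 4.16%.

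The same order was seen inside each list, where the list's own length and threshold are shared. In DMSO replicate 1 the median distance was 1847 nt for peaks in core regions and 7404 nt for its other peaks, and in DMSO replicate 2 it was 2290 and 13103 nt. SKBG-1(R) replicates gave 1510 against 2797 nt and 1832 against 16096 nt. SKBG-1(S) replicates gave 2029.5 against 4721.5 nt and 1630.5 against 9902.5 nt. Core peaks were thus nearer in 6 of 6 lists. The gap was smallest in SKBG-1(R) replicate 1, whose other peaks also lay near the start, 32.2% of them within 1 kb against 37.1% of its core peaks. The lists hold the same core regions and do not count as independent tests.

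Core regions were intronic like the rest, but more of them lay near the upstream end of a first intron. Introns held 269 of 293 (91.8%, 95% Wilson interval 88.1 to 94.4%) by the authors' annotation, against 90.0% of all regions. Wilson intervals cover counting error only, as if regions were independent, although many core regions shared a gene. The authors' class of intron within 500 nt of an exon held 118 (40.3%, 34.8 to 46.0%), against 19.0% of all regions. Of 277 core regions inside an intron of GENCODE 29, 249 (89.9%) lay in a first intron. The share was 70.7% for 1 to 4 lists and 79.9% for the other regions of the host genes. An intron counted as first if it was so in any transcript of the host in GENCODE's basic set, also one that starts far inside the gene. Where transcripts gave several introns, the one with the nearest 5′ splice site was taken, and both distances were read from it. The 3′ distance is thus not to the nearest 3′ splice site, and it cannot be set against the 5′ distance. The median distance downstream of the 5′ splice site, which opens the intron, was 715 nt against 4415 nt. Within 500 nt of that site lay 103 (37.2%) against 16.8%. Within 500 nt of the 3′ splice site of the same intron lay 9 (3.25%) against 3.82%.

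Exons held few of them by the class of most peaks in a region, but 51 core regions held peaks of different classes. The authors' classes gave 11 regions in 5′ UTRs (3.75%, against 4.59% of all regions), 6 in coding sequence, 4 in noncoding exons, 1 in a 3′ UTR, in ARFRP1, and 2 outside genes. The 5′ UTR regions included those of NCOA2, a nuclear receptor coactivator and the only one in 6 lists, SMARCA4, the ATPase of a chromatin remodelling complex, and YWHAZ, a 14-3-3 protein with 3. Coding sequence held regions of DRD4, OAZ1, PTMA, an acidic nuclear protein, and DCUN1D2, which acts in neddylation. The 4 noncoding-exon regions lay in RP13-25N22.1, DLEU2 and MIRLET7BHG, the last with 1 under a joint name with RP6-109B7.3. Introns of noncoding transcripts held 42 regions (14.3%, 10.8 to 18.8%) against 8.31% of all regions, and 33 of the 42 lay in C22orf34 (16), MIRLET7BHG (12) and RP11-475N22.4 (5). No core region lay within 1 kb of a microRNA hairpin, against 157 of all 16419 regions.

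The 293 regions fell on 150 names of the 1690 with any peak, 1 of which stands for regions outside genes and held 2. Of these, 84 had 1 core region, and 66 had 2 or more and held 209 regions between them. Neighbouring core regions lay within 500 nt of each other in 102 cases, and 12 pairs abutted. The 5 names with the most regions held 47. C22orf34, transcribed as noncoding RNA by the authors' annotation, had 16, of which 9 were in 6 lists, spread from 1056 to 40661 nt after its start. MIRLET7BHG had 13, from 16429 to 53458 nt, none of them assigned to a first intron. Several lay in no intron of the host's transcripts in GENCODE's basic set, so their intron rank is not known. SLC7A5, the light chain of a large neutral amino acid transporter, had 7, between 20888 and 24911 nt. CUX1, a homeobox transcription factor, had 6, all within the stretch from 283 to 1615 nt in its first intron. RP11-475N22.4, a noncoding transcript, had 5, as had BCOR, NFIX, TNRC18 and CCND1.

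The leading hosts therefore differed in layout: the regions of CUX1 clustered at the start, and those of C22orf34, MIRLET7BHG and SLC7A5 lay mostly farther in. BCOR, a corepressor that binds BCL6, held its 5 regions between 80530 and 93545 nt from the gene start, but the nearest lay 415 nt after a 5′ splice site. CCND1, the cyclin D1 gene, held 5 between 3503 and 6491 nt.

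Counts of hosts were read by gene lists that had been assembled with earlier results of these data known. Of all 1691 genes with a peak, 153 (9.05%) had a core region. Among chromatin regulators with a peak, 16 of 39 had one, with 30 regions in all, among them BCOR with 5 and ANKRD11 and RAI1 with 3 each. Among sequence-specific transcription factors, 6 of 24 did: CUX1 with 6, NFIX with 5, E2F3 with 3, and GRHL2 and NFIC with 2 each, besides ZFHX3. The cell cycle list gave 3 of 4, CCND1, E2F3 and CDKN2A, and noncoding RNAs and microRNA hosts 4 of 8, C22orf34, MIRLET7BHG, DLEU2 and LINC-PINT. Genes with many peaks had more chances to hold a core region, and the RNA level of the hosts was not analysed here. Its part in these counts was not tested.

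Transcripts of paraspeckle proteins were among the hosts. Of 22 listed genes 7 had a peak and 4 a core region: DAZAP1 with 2, HNRNPF with 2, MATR3 and SMARCA4 with 1 each. HNRNPF codes for an RNA-binding protein that recognises runs of G, and its six-list region had log2 enrichments of 3.75 and 3.64 under DMSO, 3.66 and 4.74 under SKBG-1(R), and 3.70 and 4.00 under SKBG-1(S). MATR3 codes for a nuclear matrix protein, and its region, in the first intron and 501 nt from the gene start, stood at 3.33 and 3.85, 3.72 and 3.22, and 5.12 and 4.41 in the same order. NEAT1 had 2 peaks, in 2 lists and in different regions, and MALAT1 had 2. No list had a peak in SFPQ, PSPC1 or NONO itself.

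Members of 5 further lists were also hosts. Splicing and RNA-binding factors gave 3 of 12 (HNRNPF, LARP1 and SRPK2), amino acid transporters 1 of 4 (SLC7A5), stress genes linked to ATF4 1 of 4 (TRIB3), TGF-beta and BMP signalling 1 of 8 (PMEPA1), and the cytoskeleton 1 of 11 (MICAL3). None of 10 luminal prostate markers had a core region, and TMPRSS2, an androgen-regulated protease gene, had 5 peaks in 3 lists. Of 12 markers of other cells none had a peak. Absence of a peak does not show absence of the RNA, so this says little about the cell label.

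Among regions in 6 lists, 9 of the 10 with the highest weakest value are described list by list. The value is the authors' log2 enrichment of immunoprecipitated over input reads for the strongest peak of a list in the region, and the deposited lists start at 3. NFIX (chr19:12995870-12996254, first intron, plus strand), which codes for a nuclear factor I transcription factor, stood at 4.66 and 5.78 under DMSO, 4.50 and 6.30 under SKBG-1(R), and 4.47 and 5.69 under SKBG-1(S). Replicate 2 was above replicate 1 in all 3 groups, and the groups overlapped. ANP32A (chr15:68818665-68818908, first intron), an inhibitor of protein phosphatase and histone acetylation, stood at 4.31 and 5.06, 5.08 and 5.54, and 5.01 and 4.87. SSBP2 (chr5:81750281-81750558, first intron), a cofactor in LDB1 transcription complexes, stood at 4.21 and 4.20, 5.64 and 4.73, and 5.29 and 5.90. In ANP32A both SKBG-1(R) values were above the other 4, and in SSBP2 both DMSO values were below the other 4.

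GALNT7 (chr4:173169176-173169794, first intron) stood at 4.87 and 3.82 under DMSO, 4.86 and 4.64 under SKBG-1(R), and 5.68 and 6.12 under SKBG-1(S), so that both SKBG-1(S) values were above the other 4. ANKRD11 (chr16:89489601-89490010, first intron), a chromatin regulator, stood at 4.65 and 3.93, 5.69 and 4.62, and 5.63 and 4.10, so that replicate 1 was higher in each group. These orders were read after the values were seen, each list was scaled to its own libraries, and no test was made on them.

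Over the 101 six-list regions, both SKBG-1(R) values were above both DMSO values in 28 and below them in 4. All regions that these 4 lists held, 127 with the 101 among them, gave shares of 26.8% and 4.72%, and the 26 outside the 101 gave 6 and 2. Both SKBG-1(S) values were above both DMSO values in 29 and below in 9, beside 27.8% and 9.77% of 133 regions, of which the 32 outside the 101 gave 8 and 4. Both SKBG-1(R) values were above both SKBG-1(S) values in 24 and below in 15, beside 21.3% and 13.3% of 286 regions, of which the 185 outside the 101 gave 37 and 23. The sets overlap, and the first 2 comparisons share the DMSO lists, so nothing is read from how near the shares are. The strongest of several peaks was taken, and in these regions peaks numbered 140 and 227 under DMSO, 214 and 384 under SKBG-1(R), and 188 and 257 under SKBG-1(S). The part of peak number in the order was not tested.

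The other 4 included the narrowest ranges. BCOR (chrX:40092057-40092296) stood at 4.13 and 4.25 under DMSO, 4.26 and 4.18 under SKBG-1(R), and 4.31 and 4.64 under SKBG-1(S), the last both above the other 4. ZNF787 (chr19:56120739-56121091), a zinc finger protein gene, stood at 4.11 and 4.34, 3.93 and 4.04, and 4.29 and 4.42, with both SKBG-1(R) values below the other 4. GPR35 (chr2:240626050-240626165), a G protein-coupled receptor gene, ranged from 3.93 to 5.14, and DLEU2 (chr13:50123972-50124397) from 3.85 to 5.59. All 9 lay in the first intron of an annotated transcript, which need not start at the gene start. The distance from the gene start was 365 nt in ZNF787, 454 in NFIX, 732 in GALNT7, 756 in ANKRD11, 1378 in SSBP2, 1536 in DLEU2 and 2111 in ANP32A. Of the 9, only GPR35 and BCOR lay farther in, at 20676 and 85153 nt.

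**Figure D3:**
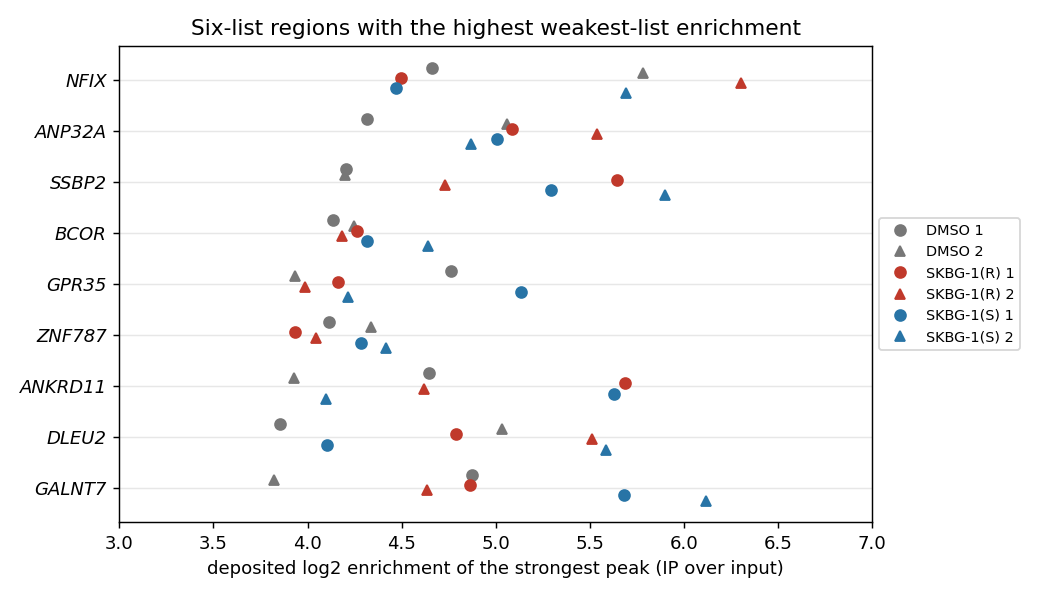
Deposited log2 enrichment (horizontal axis, starting at the lists' minimum of 3) of the strongest peak in each of the 6 lists for 9 of the 10 six-list regions with the highest weakest value, 1 row per host gene. Circles are replicate 1, triangles replicate 2, and colours the treatment. In NFIX the 3 triangles lie at 5.69 to 6.30 and the 3 circles at 4.47 to 4.66, and in BCOR all 6 lie between 4.13 and 4.64.

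The maps of NFIX and GALNT7 show how core regions sit among other peaks. In NFIX 3 core regions lay at 454, 743 and 1099 nt and 2 at 6919 and 7171 nt. Over the first 8000 nt the replicate 1 lists had no peak outside the core regions, whereas replicate 2 of DMSO, SKBG-1(R) and SKBG-1(S) had 19, 19 and 10. The whole gene, which is 103189 nt long, held 128 regions. In GALNT7 the 3 core regions, all of 6 lists, lay at 732 to 1306 nt of a gene of 155215 nt with 29 regions.

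**Figure D4:**
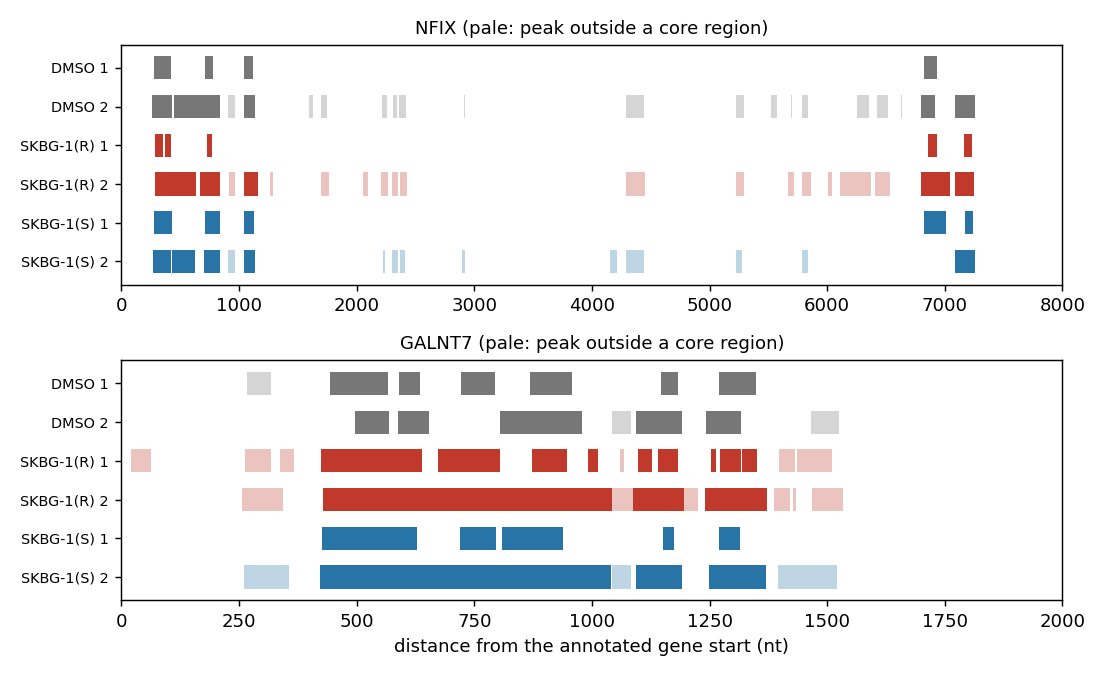
Peaks of the 6 lists along the first 8000 nt of NFIX and the first 2000 nt of GALNT7, by distance from the annotated gene start in nt, 1 row per list. Solid bars are peaks in core regions and pale bars other peaks. In NFIX the core peaks form 2 groups, and in GALNT7 they lie between 423 and 1372 nt.

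The regions of 5 lists lacked DMSO replicate 1 in 85 cases, DMSO replicate 2 in 51, SKBG-1(R) replicate 1 in 23 and replicate 2 in 7, and SKBG-1(S) replicate 1 in 11 and replicate 2 in 15. The list lacking most often, DMSO replicate 1, was also the shortest, with 669 peaks. DMSO replicate 2, with 3678, was nevertheless missing more often than SKBG-1(S) replicate 1 with 1237. The missing list had a peak within 1 kb in 35 of 85 and 39 of 51 cases for DMSO, 15 of 23 and 6 of 7 for SKBG-1(R), and 9 of 11 and 15 of 15 for SKBG-1(S).

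Strong regions were found for each missing list. GSE1, a chromatin-associated protein gene, and TRIB3, a pseudokinase gene induced in the stress response, lacked DMSO replicate 1, with 4.19 to 5.47 and 4.19 to 4.96 in the other lists. CUX1 and NCOA2 lacked DMSO replicate 2, with 4.20 to 5.68 and 4.08 to 6.02. PTPRN2, a phosphatase-like protein of secretory vesicles, lacked SKBG-1(R) replicate 1 and held the strongest core peak of any list, 7.85 in DMSO replicate 2, beside 4.72 to 5.34 in the other 4. C22orf34 lacked the same list with 3.63 to 5.11. PPP3CA, the catalytic subunit of calcineurin, and IQSEC2, an exchange factor for ARF proteins, lacked SKBG-1(R) replicate 2, with 3.85 to 4.89 and 3.64 to 4.91. SSBP2 and E2F3 lacked SKBG-1(S) replicate 1, with 3.66 to 4.61 and 3.63 to 4.99, and NFIX and C22orf34 lacked SKBG-1(S) replicate 2, with 3.56 to 5.17 and 3.49 to 5.72.

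Just outside the rule, the 3 four-list regions with the highest weakest value were in RNU1-4, a U1 small nuclear RNA gene with near-identical copies (4.26 to 5.88), ADARB1, an RNA-editing enzyme (4.22 to 5.32), and GALNT7 (4.20 to 5.45). The median weakest value was 3.35 in four-list, 3.36 in five-list and 3.39 in six-list regions, and the median strongest 4.45, 4.80 and 4.81. Regions of 4, 5 and 6 lists had median widths of 137, 162.5 and 183 nt, which grow with the number of peaks merged.

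Each list put a different share of its peaks into core regions. It was 39.9% (267 of 669) and 12.6% (463 of 3678) under DMSO, 25.7% (501 of 1953) and 5.93% (880 of 14847) under SKBG-1(R), and 36.8% (455 of 1237) and 15.3% (605 of 3967) under SKBG-1(S). Replicate 1, with fewer peaks, had the higher share in every group, and the shares of the groups overlapped. The number of core regions held was 208 and 242, 270 and 286, and 282 and 278. These counts are bounded by the rule. By the deposited −log10 p, core peaks had a median percentile within their list of 56.7 and 88.8 under DMSO, 69.8 and 90.2 under SKBG-1(R), and 69.1 and 88.4 under SKBG-1(S). Of the 100 peaks with the smallest p in each list, 50 and 79, 60 and 40, and 67 and 75 lay in core regions.

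The weight of the core regions in each group was compared on 2 measures, for 3 pairs of groups. Both measures are built from the peaks that chose the regions, so the differences are descriptions. An exact two-sided permutation of 2 lists against 2 cannot give a p below 0.3333, and it gave exact p of 0.667 or 1 (1 in all after Benjamini-Hochberg adjustment over the 3 pairs), which could settle none of them. The share of peaks in core regions was 26.2% ± 19.3 (SD, n = 2) under DMSO, 15.8% ± 13.9 under SKBG-1(R), and 26.0% ± 15.2 under SKBG-1(S).

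SKBG-1(R) minus DMSO was −10.5 percentage points, with −14.3 between the replicate 1 lists and −6.66 between the replicate 2 lists. SKBG-1(S) minus DMSO was −0.23, with −3.13 and 2.66. Between the stereoisomers, at the same dose and time, SKBG-1(R) minus SKBG-1(S) was −10.2, with −11.1 and −9.32. The SKBG-1(R) share was thus the lowest of the 3 groups within each number, and the SKBG-1(R) list was also the longest within each number. When every list was shortened to its 669 peaks with the smallest p, the same rule gave a new set of 88 core regions. For that set SKBG-1(R) minus DMSO turned to 5.01 points, SKBG-1(S) minus DMSO to 6.28, and SKBG-1(R) minus SKBG-1(S) became −1.27. Across numbers, single-list differences ran from −34.0 to 13.1, −24.7 to 24.2 and −30.9 to 10.4. Ranges this wide do not show that the compounds act alike.

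The bases covered by peaks inside core regions were 18731 and 32840 nt under DMSO, 27529 and 47518 nt under SKBG-1(R), and 29043 and 41584 nt under SKBG-1(S). Replicate 2 covered more in each group. On the log2 scale the group means were 14.60 ± 0.57, 15.14 ± 0.56 and 15.08 ± 0.37 (SD, n = 2). SKBG-1(R) minus DMSO was 0.54, with 0.56 and 0.53 within the numbers, and SKBG-1(S) minus DMSO was 0.49, with 0.63 and 0.34. Both compounds thus covered more than DMSO within each number. A list without a peak in a region adds no bases there, and the DMSO lists were missing most often, from 85 and 51 regions. In the 101 regions of 6 lists the 2 differences were smaller, 0.26 and 0.18. With lists of equal length, and the core regions chosen anew from them, SKBG-1(R) minus DMSO became −0.18 and SKBG-1(S) minus DMSO 0.24. SKBG-1(R) minus SKBG-1(S) was 0.06, with −0.08 and 0.19. The labels do not say that a number marks a shared day or preparation. The depth of the libraries is unknown, as the files hold no read counts, and its part in these sums was not tested.

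The peaks within a core region mostly met at a common base. In 231 of 293 regions (78.8%, Wilson 73.8 to 83.1%) at least 1 base lay under a peak of every list that held the region, with 75 of 101 in six-list and 156 of 192 in five-list regions. In 52 others the best base was 1 list short and in 10 it was 2 short, so that these regions are chains of neighbouring peaks. The shared stretch had a median length of 59 nt.

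Within the 101 six-list regions, the place of the strongest peak was closer among replicate 1 lists. Median distances between peak middles were 5.0 nt for DMSO against SKBG-1(S), 7.5 nt for DMSO against SKBG-1(R) and 10.5 nt for SKBG-1(R) against SKBG-1(S), all of replicate 1. Among replicate 2 lists they were 35 to 44.5 nt, between replicates of a treatment 32 to 42.5 nt, and in pairs that shared neither 29.5 to 53 nt. Replicate 2 lists had 227, 384 and 257 peaks in these regions against 140, 214 and 188, and so offered more peaks to choose from. Where both lists of a pair held a single peak (14 to 50 regions), the medians were 2.25 to 3.25 nt among replicate 1 lists, 2 to 6 nt among replicate 2 lists, 8 to 8.5 nt within a treatment and 7.5 to 12.25 nt in other pairs. By these medians, the peaks of equally numbered lists stood closer together than those of 1 treatment. Among replicate 1 lists this held in both ways of choosing peaks, and among replicate 2 lists in single-peak regions only. The share of single peaks within 20 nt was 82.0 to 94.4% among replicate 1 lists. Among replicate 2 lists it was 73.7 to 85.7%, which overlapped the 68.3 to 78.9% within a treatment.

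**Figure D5:**
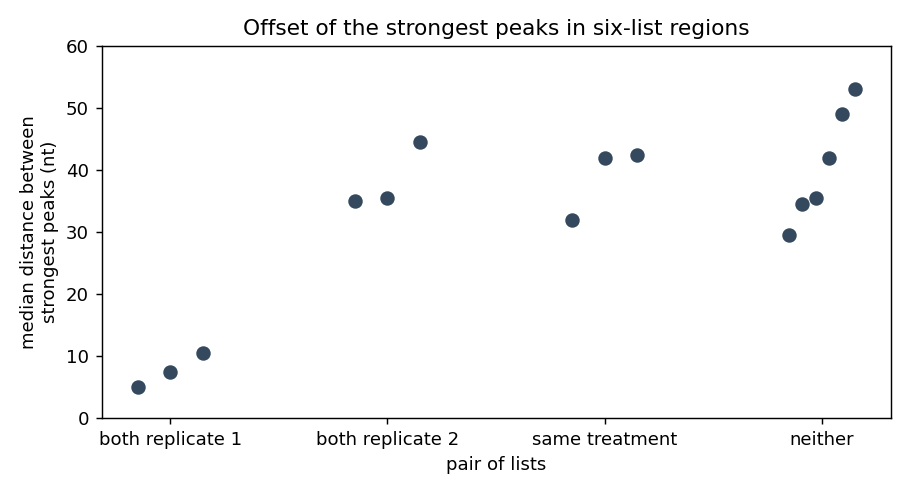
Median distance in nt between the strongest peaks of 2 lists in the 101 six-list regions, 1 point per pair of lists, grouped by what the pair shares. The 3 pairs of replicate 1 lists lie at 5.0 to 10.5 nt and the 12 other pairs at 29.5 to 53 nt.

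Enrichment values were only weakly related between lists. Across the 101 regions, Spearman's rho of log2 enrichment was 0.11 to 0.36 between lists of the same number, −0.04 to 0.23 between lists of the same treatment and −0.10 to 0.11 between the others. These are correlations across regions within lists that share the regions and a minimum of 3, and regions are not replicates. What the equally numbered lists had in common is not given in the labels and was not tested.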

How the data were processed

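Immunoprecipitated and input eCLIP libraries of 3 groups (2 replicates each, 12 libraries) were read as 6 deposited peak lists of 669 to 14847 peaks. Libraries were trimmed with cutadapt 1.9 and aligned with STAR 2.4.0i, per the submitters' processing notes, which name hg19 and hg38. Not given in the sources used here is the peak caller. The authors deposited for each peak a −log10 p (minimum 3, cap 400) and a log2 enrichment over input (minimum 3). Both were used only to describe or rank peaks within a list. Coordinates are GRCh38: 9797 of 9850 annotated transcripts (99.5%) had the same coordinates in GENCODE 29 within 1 nt, and all 1691 gene identifiers matched.

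Peaks were merged in Python 3.11.15 with pandas 2.3.3. The class and gene of a region are those of most of its peaks. A script took bases from GENCODE 29 transcripts and RefSeq promoter windows (GRCh38.p14), and 126 of 126 windows in both sources were identical. Tests were exact two-sided permutations over lists, checked on values with a known answer, and merging was checked on simulated peaks. The members and gene lists were chosen with earlier results of these data known. Genes named are the 10 six-list regions with the highest weakest log2 enrichment, the 5 hosts with most core regions, up to 4 hosts per gene list, 2 five-list regions per missing list, 3 four-list regions, and up to 4 exonic or noncoding regions per class. Other members of the gene lists, windows printed, offsets in single-peak regions, non-overlapping orders, and NEAT1, MALAT1, SFPQ, PSPC1 and NONO were added after the values were seen. Some results that fall under this rule are not reported here.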

Additional observations from a re-analysis of the deposited data

How the results depend on the processing

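Read depth is unknown, and its part in the values below was not tested. The number of core regions was 101 when all 6 lists were required, 626 with at least 4, 22 at a log2 enrichment of at least 4, 149 at a −log10 p of at least 5 and 88 with lists cut to 669 peaks each. The intron share became 97.0% in 6 lists, 100% at the log2 limit and 96.6% with equal lists. The share of regions with a common base was 40.9% at the log2 limit, 83.2% at the p limit, 95.3% with an overlap of 20 nt and 90.9% with equal lists. The median distance from the gene start was 1337 nt at the log2 limit, 1594 nt with equal lists and 574 nt to the nearest transcript start. Median GC content was 84% in the 47 core windows with bases and 76% in those left at the log2 limit. How many of the 22 regions had bases there is not given, so no change is read from GC content, here or below.

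Differences between groups changed sign. In the share of peaks in core regions, SKBG-1(S) minus DMSO was 1.63 with 4 lists, 0.085 at the log2 limit and 6.28 with equal lists, and SKBG-1(R) minus DMSO was 5.01 with equal lists. In log2 bases covered, SKBG-1(R) minus SKBG-1(S) was −0.042 with the 20 nt overlap and −0.43 with equal lists, and SKBG-1(R) minus DMSO was −0.18 with equal lists. The cause was not tested.

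Leaving out each list in turn, with 4 of 5 lists required, gave 320 to 518 regions (518 without DMSO replicate 1), intron shares of 89.7 to 93.1%, common bases in 81.1 to 88.2%, GC of 82% and distances of 2018 to 3553 nt (3553 without SKBG-1(R) replicate 1). Differences in share ran from −35.1 to 2.34 (SKBG-1(R) minus DMSO), −22.3 to 16.0 (SKBG-1(S) minus DMSO) and −24.6 to 0.51 (SKBG-1(R) minus SKBG-1(S)), and in log2 bases from 0.05 to 0.97, −0.069 to 0.85 and −0.29 to 0.48. With the replicate number as a block the differences are the same by construction, for instance −10.5 points for SKBG-1(R) minus DMSO. Its exact sign-flip p was 0.5, the smallest 2 pairs allow, so no call could have changed. The labels do not say that equal numbers pair the lists.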
